A study of Homo sapiens with 4 samples.

Results

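The 8 genes described here were SNAI1, SNAI2, SNAI3, ZEB1, ZEB2, TWIST1, TWIST2 and VIM, of 61860 genes in the deposited count table. They are the SNAI, ZEB and TWIST transcription factors of epithelial-mesenchymal transition (EMT), together with the mesenchymal intermediate filament gene VIM. They were chosen by name because SNAI1 had one of the largest rises in these samples. The values of the 8 genes in the same contrast are therefore given as a description, without p-values. RNA-seq was carried out on cells labelled HT1376, an established bladder cancer line, grown in MEM with serum. In the EV group (n = 2) cells received 1 nM enfortumab vedotin (EV) for 48 h. In the control group (n = 2) they received WFI, as the labels call it, for 48 h. EV is an antibody-drug conjugate that binds nectin-4 and releases the microtubule poison monomethyl auristatin E. All samples came from 1 line, and the labels do not say whether replicates were separate cultures, so the spread between them may be technical.

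SNAI proteins are zinc finger repressors, ZEB proteins carry zinc finger clusters at both ends and a homeodomain, and TWIST proteins are basic helix-loop-helix (bHLH) factors. SNAI and ZEB proteins bind E-boxes in the promoters of epithelial genes such as CDH1, which encodes E-cadherin, and recruit corepressors. In epithelial cancers, bladder cancer among them, these factors are known for loss of cell junctions and gain of mesenchymal genes, of which VIM, encoding vimentin, is the usual marker. SNAI1 protein is short-lived, and ZEB1 and ZEB2 transcripts are held down by microRNAs of the miR-200 family, which ZEB proteins repress in turn.

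Because ZEB1 and ZEB2 were among the expressed factors, the mature miR-200 family sequences (RefSeq, GRCh38.p14) are shown with the seed, bases 2 to 8, in capitals. The first 3 share one seed and the last 2 share the other. On the plus strand, miR-200b-3p lies at chr1:1167160-1167181, miR-200a-3p at chr1:1167916-1167937, miR-429 at chr1:1169055-1169076, miR-200c-3p at chr12:6963742-6963764 and miR-141-3p at chr12:6964155-6964176.
hsa-miR-200b-3p: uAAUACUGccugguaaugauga
hsa-miR-200c-3p: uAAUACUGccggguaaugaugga
hsa-miR-429: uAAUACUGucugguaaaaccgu
hsa-miR-200a-3p: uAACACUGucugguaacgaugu
hsa-miR-141-3p: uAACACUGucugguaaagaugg
The 3′ untranslated region of the principal ZEB1 transcript (GENCODE 29) held 8 matches to these seeds in 1938 bases, 5 to the first seed and 3 to the second. That of ZEB2 held 9 in 5370 bases, 5 and 4. Of 19129 such regions of protein coding genes, 26.0% held at least 1 match, 0.047% held 8 or more and 0.026% held 9 or more. These shares are not scaled by length, and the median region had 877 bases. Per kilobase, ZEB1 held 4.13 and ZEB2 1.68 matches, against 0.258 over all regions. The region of VIM held 0 matches in 321 bases. A ZEB1 site at chr10:31528562-31528583 (plus strand) and a ZEB2 site at chr2:144389053-144389074 (minus strand, hg38) are printed 5′ to 3′ with the seed match in capitals.
ZEB1 site: tgtcttcaaacctggCAGTATT
ZEB2 site: cgcactaccatacatCAGTATT
A seed match is a description of the letters and not a measured interaction.

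Promoters, from 250 bases before to 50 after a start site, were found in the RefSeq table (GRCh38.p14) for 4 of the 8 genes: ZEB1, ZEB2, TWIST2 and VIM. They were searched for CAGGTG, the E2-box that SNAI and ZEB proteins bind, on both strands. This motif is a case of the general E-box CANNTG. It occurred in 2 of the 7 ZEB1 promoters and in 0 of the single ZEB2, TWIST2 and VIM promoters, against 20.6% of 35116 promoters in the table. The ZEB1 promoter with 3 matches (chr10:31318966-31319265, plus strand) and the VIM promoter with none (chr10:17227991-17228290, plus strand) are shown because the Snail protein is known to bind this motif and both genes were measurable in all samples. Capitals mark the matches, at 242 and 85 bases before the start site and 34 bases into the transcript.
ZEB1 promoter: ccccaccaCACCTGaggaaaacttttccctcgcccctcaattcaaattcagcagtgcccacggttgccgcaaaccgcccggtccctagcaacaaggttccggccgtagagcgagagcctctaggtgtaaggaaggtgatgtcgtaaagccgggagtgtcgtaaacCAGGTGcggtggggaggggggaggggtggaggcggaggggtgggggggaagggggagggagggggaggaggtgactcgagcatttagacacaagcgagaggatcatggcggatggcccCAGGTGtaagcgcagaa
VIM promoter: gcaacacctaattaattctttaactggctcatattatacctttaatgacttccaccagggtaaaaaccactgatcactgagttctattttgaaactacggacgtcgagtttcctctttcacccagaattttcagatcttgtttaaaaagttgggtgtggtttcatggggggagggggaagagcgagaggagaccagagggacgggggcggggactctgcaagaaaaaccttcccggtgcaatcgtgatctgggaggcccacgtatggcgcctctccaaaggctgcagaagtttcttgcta
A match is no evidence of binding, and its absence refers to this window alone.

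Total counts ran from 19368791 to 20727175 in EV samples and from 19447577 to 19669037 in WFI samples. Of 17465 genes tested with edgeR, 11528 were called changed at a Benjamini-Hochberg adjusted p below 0.05, or 66%, with 34.5% higher and 31.5% lower in EV. Among the 8 genes, 6 could be fitted and 6 were called, 3 higher and 3 lower; the choice of genes used this contrast, so nothing is read from that count against 66%. The files offer no test of the cells' identity beyond marker levels. The 18 urothelial markers summed to 3918 and 3984 CPM in EV samples and 1696 and 1677 CPM in WFI samples. CPM, the level used throughout, is the count scaled by library size with TMM factors, so that each level is relative to the other genes of its sample. KRT8, KRT18, KRT7 and KLF5 made up nearly all of that sum. Of these markers 11 passed the count filter and were higher in EV, but 4 of the 11 had fewer than 10 counts over both WFI samples and passed through EV. KRT20 had 0 counts in all 4 samples, KRT19 had 0 and 1 in EV and 1 and 6 in WFI, and the uroplakin genes UPK1B, UPK2 and UPK3A had at most 13 counts in any sample. The uroplakin gene UPK1A had 17 and 21 counts in EV and 1 and 2 in WFI, and was among those that passed through EV. CDH1 had 9 and 7 counts in EV samples and 0 and 1 in WFI samples. E-cadherin transcript was thus near 0 in these cells labelled as bladder cancer, although KRT8, KRT18 and KRT7 were abundant. Of 8 leukocyte markers 4 were tested and all 4 were higher, but 2 of these had fewer than 10 counts over both WFI samples. Those 2 passed through EV and could only be higher. The same held for CSF1R, with 21 and 31 counts in EV and 4 and 7 in WFI. The list summed to 44.0 and 44.7 CPM in EV samples against 1.74 and 2.63 CPM in WFI samples. The defining marker PTPRC had 4 and 9 counts in EV and 1 and 3 in WFI. Of 9 fibroblast markers 4 were tested and 1 was higher, FAP, which had 3 and 0 counts in WFI and likewise passed through EV. This list summed to 16.5 and 13.2 CPM in EV against 13.5 and 13.7 CPM in WFI. DCN had 18 and 6 counts in EV and 2 and 1 in WFI. Of 6 endothelial markers 3 were tested and 2 were higher, 1 of them TEK, which had 2 and 3 counts in WFI and passed through EV. Their list summed to 7.37 and 9.50 CPM in EV against 2.32 and 2.73 CPM in WFI. CDH5 had 5 and 3 counts in EV and 0 in WFI. The part of these marker shifts in the values below was not tested.

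**Figure D1:**
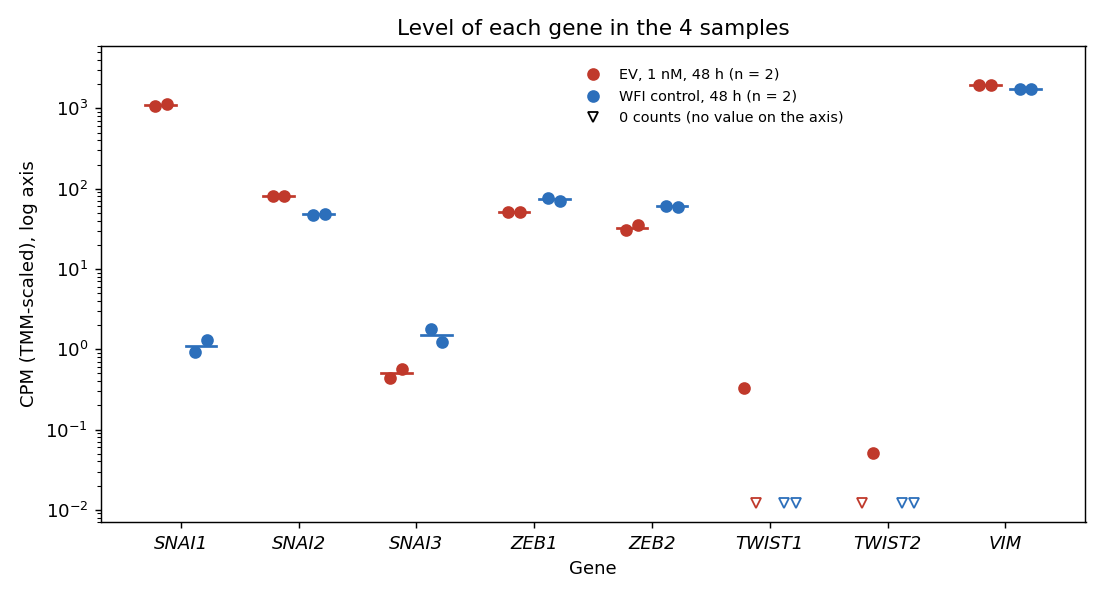
TMM-scaled CPM of each gene (log axis) in EV samples (red) and WFI samples (blue), each point a sample and each bar the mean of 2, drawn where both samples had counts; open triangles mark samples with 0 counts. SNAI1 averages 1114 CPM in EV and 1.11 CPM in WFI, while SNAI2, ZEB1, ZEB2 and VIM differ by less than 2-fold and TWIST1 and TWIST2 lie at the detection limit.

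SNAI1 was abundant in EV samples and rare in WFI samples. SNAI1 (ENSG00000124216, hg38 chromosome 20, 49982999 to 49988886, plus strand) encodes the Snail repressor. It had 19741 and 22138 counts in EV samples and 19 and 27 counts in WFI samples, or 1085 and 1143 CPM in EV against 0.920 and 1.29 CPM in WFI. Both EV samples lay far above both WFI samples, and each pair of replicates differed little beside that gap. The ratio of means was 1008, and the ratios of single EV to single WFI samples ran from 841 to 1243. With 46 counts in the denominator the 95% exact binomial interval of the ratio was 756 to 1377, counting error only. The fitted log2 fold change was 9.97 (SE 0.08), the 17th largest of 17465. Of the 16 genes above it, 14 had 0 counts in both WFI samples, where a fitted value depends on the prior count, and the others were ID2 and FRG2C. In these bulk samples more SNAI1 RNA per cell and more cells with SNAI1 RNA cannot be told apart.

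SNAI2, which encodes Slug, the close relative of Snail, was higher in EV by far less (ENSG00000019549, chromosome 8, 48917604 to 48921740, minus strand). It stood at 82.0 and 82.1 CPM in EV samples and at 47.2 and 49.0 CPM in WFI samples, a ratio of 1.71 and a fitted log2 fold change of 0.77 (SE 0.06). The groups did not overlap. SNAI3, the least studied of the Snail genes (ENSG00000185669, chromosome 16, 88677682 to 88686493, minus strand), was rare throughout. It had 8 and 11 counts in EV samples and 37 and 26 counts in WFI samples, with a fitted log2 fold change of -1.57 (SE 0.52). Its ratio of means was 0.332, and with so few counts the 95% interval ran from 0.189 to 0.565. The 3 Snail genes thus differed in size and sign within one contrast.

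ZEB1 and ZEB2 were lower in EV. ZEB1 (ENSG00000148516, chromosome 10, 31318495 to 31529814, plus strand) stood at 50.7 and 51.9 CPM in EV samples and at 77.6 and 70.2 CPM in WFI samples, with a fitted log2 fold change of -0.53 (SE 0.07). ZEB2 (ENSG00000169554, chromosome 2, 144364364 to 144524583, minus strand) stood at 30.6 and 34.9 CPM in EV samples and at 61.6 and 59.8 CPM in WFI samples, with a fitted log2 fold change of -0.89 (SE 0.08). For both genes the groups did not overlap. Transcript length moved with this contrast, and both ZEB transcripts are long. Protein coding genes in the length decile of ZEB1 (4481 to 5493 bases, principal transcript) centred on -0.26 (median, log2), and those in the decile of ZEB2 (7249 bases and more) on -0.73. In the deciles of SNAI1 (1360 to 1848 bases) and SNAI2 (2231 to 2664 bases) the medians were 0.38 and 0.17. Over all deciles the medians ran from 0.58 for the shortest transcripts to -0.73 for the longest. The part of length in the ZEB values, and in those of the other genes and lists below, was not tested.

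TWIST1 and TWIST2, mesodermal bHLH factors, were at the detection limit. TWIST1 (ENSG00000122691, minus strand of chromosome 7, 19020991 to 19117672) had 6 and 0 counts in EV samples and 0 in both WFI samples. TWIST2 (ENSG00000233608, chromosome 2, 238848032 to 238910543, plus strand) had 0 and 1 counts in EV samples and 0 in both WFI samples. A count of 0 allows up to 3 counts, which was 0.165 and 0.155 CPM in EV samples and 0.145 and 0.143 CPM in WFI samples. No difference in either gene was detectable at this depth, and neither passed the count filter.

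VIM (ENSG00000026025, chromosome 10, 17228259 to 17237593, plus strand) was abundant in every sample. It had 36038 and 37508 counts in EV samples and 35700 and 35984 counts in WFI samples, or 1981 and 1937 CPM in EV against 1729 and 1720 CPM in WFI. The ratio was 1.14 and the fitted log2 fold change 0.18 (SE 0.02), with no overlap between groups. The median of its length decile (1849 to 2230 bases) was 0.28. VIM was thus also high in WFI samples, where SNAI1 averaged 1.11 CPM.

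**Figure D2:**
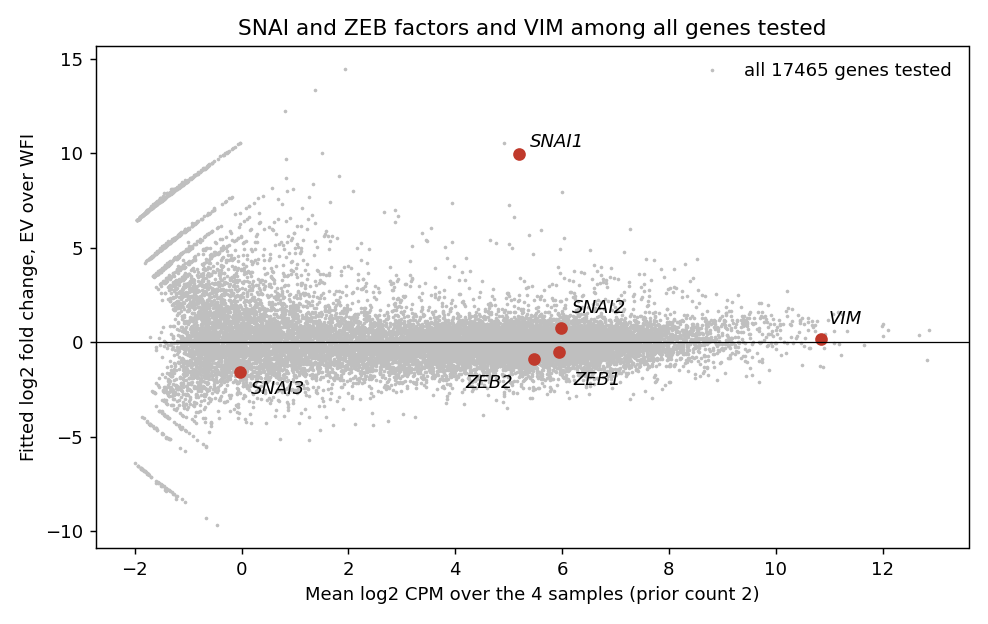
Fitted log2 fold change of EV over WFI (y axis) against mean log2 CPM over the 4 samples (x axis) for all 17465 genes tested in grey, with the fitted SNAI and ZEB factors and VIM in red. SNAI1 lies at 9.97, while the other red points lie between -1.57 and 0.77; the lines of grey points at the left are genes with few counts in 1 group.

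Levels were compared between genes as CPM per kilobase of the principal transcript. In EV samples the order was VIM at 918 ± 14.5, SNAI1 at 661 ± 24.4, SNAI2 at 33.8 ± 0.0467, ZEB1 at 9.46 ± 0.152, ZEB2 at 3.43 ± 0.322 and SNAI3 at 0.291 ± 0.0524 CPM per kb (SD, n = 2). No neighbouring pair in that order overlapped between samples. In WFI samples it was VIM at 808 ± 2.81, SNAI2 at 19.8 ± 0.520, ZEB1 at 13.6 ± 0.971, ZEB2 at 6.36 ± 0.133, SNAI3 at 0.876 ± 0.224 and SNAI1 at 0.656 ± 0.155 CPM per kb. SNAI3 and SNAI1 overlapped there, and their order is undecided. Among 13554 protein coding genes ranked per length, SNAI1 stood 94th in EV and 11290th in WFI, and VIM stood 63rd in EV and 28th in WFI. With the merged length of all annotated exons, VIM in EV came to 380 CPM per kb against 661 for SNAI1, so the order of these genes in EV depends on the transcript assumed.

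The makeup of the factor transcripts differed accordingly. SNAI1 was 93.2% and 93.5% of the summed CPM per kb of the 7 factors in EV samples, against 1.31% and 1.87% in WFI samples. SNAI2 was 4.89% and 4.66% in EV samples, against 46.5% and 49.4% in WFI samples. ZEB1 was 1.36% and 1.32% in EV samples and 34.3% and 31.7% in WFI samples, and ZEB2 was 0.464% and 0.504% in EV samples and 15.5% and 15.3% in WFI samples. As shares of counts, not divided by length, SNAI1 was 86.9% and 87.1% in EV samples against 0.486% and 0.711% in WFI samples, and SNAI2 was 6.56% and 6.25% in EV samples against 25.0% and 27.0% in WFI samples. ZEB1 then led in WFI samples, with 4.06% and 3.95% in EV against 41.0% and 38.7% in WFI, and ZEB2 had 2.45% and 2.66% in EV against 32.6% and 33.0% in WFI. The leading factor in WFI thus depends on the division by length, while SNAI1 led in EV on both scales.

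**Figure D3:**
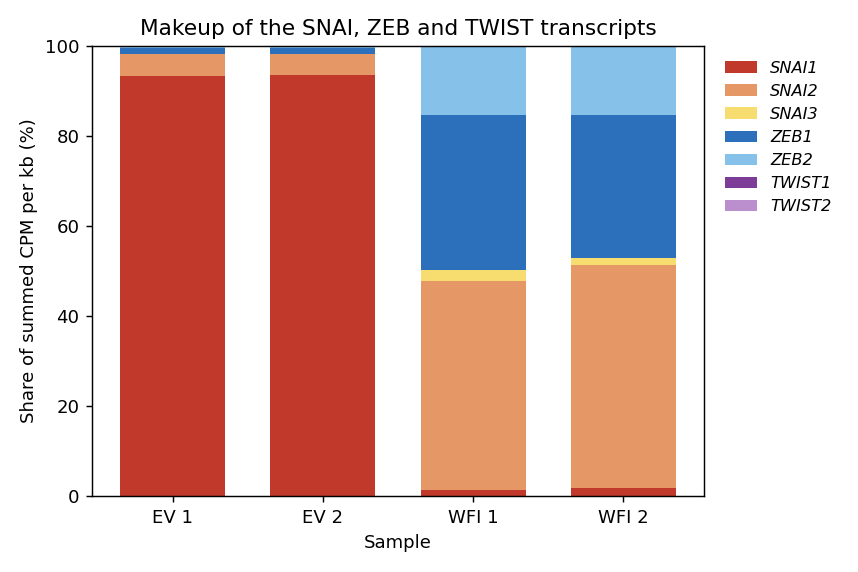
Share of each factor in the summed CPM per kb of the SNAI, ZEB and TWIST genes (y axis, percent), by sample, EV samples left and WFI samples right. SNAI1 takes 93.2% and 93.5% of the bars in EV and 1.31% and 1.87% in WFI.

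The genes around SNAI1 did not share its size of change. Within 250 kb of its start, 18 other genes are annotated, of which 9 were tested, with log2 fold changes from -1.40 to 2.77. The nearest tested protein coding genes were RNF114, a ubiquitin ligase gene (0.51, edgeR adjusted p = 4.26e-06), and SPATA2, which encodes an adaptor of deubiquitination (1.29, edgeR adjusted p = 1.19e-07). CEBPB, a bZIP transcription factor gene, fell by 1.40 (edgeR adjusted p = 1.09e-09). The highest value, 2.77, belonged to KRT18P4, a pseudogene of KRT18 whose reads may be shared with the parent gene. KRT18P4 had 35 and 34 counts in EV and 2 and 9 in WFI, so it passed the count filter through EV and could only be higher. Of 8 antisense partners and neighbours of the factor genes tested as a list, 3 were called lower and 1 higher. Over all genes the shares were 31.5% lower and 34.5% higher. HDAC9, the neighbour of TWIST1 and a histone deacetylase gene, fell by 0.57 (edgeR adjusted p = 0.00356). Antisense partners were rare. VIM-AS1 had 12 and 9 counts in EV and 27 and 33 in WFI (log2 fold change -1.35, edgeR adjusted p = 0.0351), a call lost with DESeq2 (adjusted p = 0.123), with no count filter or a replicate block (edgeR adjusted p = 0.0538 and 0.0636), and without WFI replicate 1, WFI replicate 2 or EV replicate 2 (edgeR adjusted p = 0.144, 0.284 and 0.0783). ZEB1-AS1 had 54 and 49 counts in EV and 96 and 82 in WFI, and SNAI3-AS1 had 29 and 42 in EV and 56 and 69 in WFI; neither passed the test. A directional kit was used but the strand setting of the counting is not given, so reads of a gene and its antisense partner may have been mixed.

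**Figure D4:**
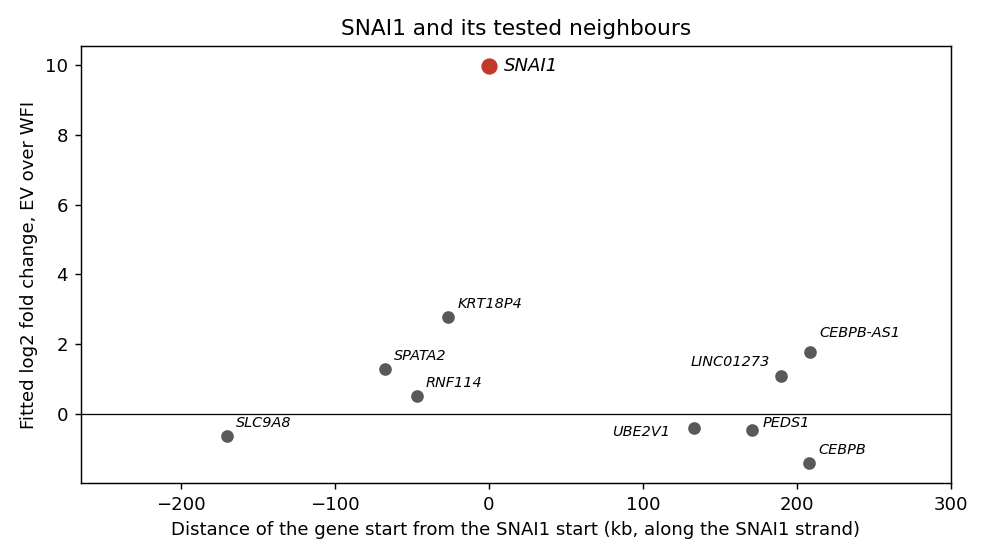
Fitted log2 fold change of EV over WFI (y axis) for SNAI1 (red) and its 9 tested neighbours (grey) against the distance of each gene start from that of SNAI1 in kb (x axis). The neighbours lie between -1.40 and 2.77 and SNAI1 at 9.97. The neighbour at 2.77, KRT18P4, passed the count filter through EV.

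By the distance between centred log2 CPM profiles over the 4 samples, the genes most like SNAI1 were EFNA2 (distance 0.610), FRG2B (0.692), ID2 (0.782), FRG2C (1.59) and FRG2EP (1.66). EFNA2, FRG2B and FRG2EP had 0 counts in WFI, and the near-identical FRG2 copies may share reads. ID2 was the one of them at the level of SNAI1, with 1106 ± 4.02 CPM in EV and 0.722 ± 0.143 CPM in WFI (SD, n = 2). Those nearest to SNAI2 were TRPC1, OCIAD1 and SNAPIN, all within 0.0107, and TAF1B and TECPR2 were among those nearest to ZEB1, within 0.0267. PLXNA1, LINC-PINT and HMGA2 were nearest to ZEB2 (within 0.0231), THYN1, MAP6 and FLII to VIM (within 0.0198), and ZNF808, PRORSD1P and FRMD6-AS2 to SNAI3 (within 0.156). A profile over 4 samples in 2 groups holds little beyond the fold change.

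Genes whose products act on the SNAI1 protein were more often lower than higher in EV. Of 20 kinases, ubiquitin ligases, deubiquitinases and related factors tested, 4 were called higher and 15 lower, and 1 was not called. Over all genes tested, 34.5% were higher and 31.5% lower. The list median was -0.44 on the log2 scale, against 0.02 over all genes tested. Principal transcripts of the lower genes ran from 1098 to 8032 bases and those of the higher genes from 1954 to 3737 bases, and the part of length was not tested. The ubiquitin ligase genes BTRC, FBXL14 and FBXL5, whose products mark Snail for degradation, fell by 0.88, fell by 1.32 and fell by 0.54 on the log2 scale (edgeR adjusted p = 1.32e-05, 7.64e-06 and 5.3e-05). MDM2, a ligase better known for p53, fell to 62.9 ± 2.16 CPM in EV, against 124 ± 0.476 CPM in WFI (edgeR adjusted p = 4.59e-08). CSNK1E, a casein kinase gene, fell by 0.83 (edgeR adjusted p = 4.77e-08). GSK3B, which encodes a kinase that phosphorylates Snail ahead of its degradation, stood at 166 ± 8.91 CPM in EV and 163 ± 3.62 CPM in WFI and did not pass (edgeR adjusted p = 0.624). Its paralog GSK3A rose by 1.46 (edgeR adjusted p = 4.62e-09). PSMD14, a deubiquitinase of the proteasome lid, rose to 292 ± 4.20 CPM in EV, against 120 ± 3.30 CPM in WFI (edgeR adjusted p = 4.64e-10). Deubiquitinase genes USP27X and USP37 fell by 1.53 and fell by 1.30 (edgeR adjusted p = 0.000258 and 1.08e-05).

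Upstream signal genes moved both ways. Of 29 ligand, receptor and transducer genes tested, 8 were called higher, 13 lower and 8 neither, beside 34.5% higher and 31.5% lower over all genes. The list median was -0.08 on the log2 scale against 0.02 over all genes. Both signs were common among all genes, so the split is not read as particular to this list. In the TGF-beta pathway, a classic inducer of SNAI1, the ligand gene TGFB1 rose by 0.46 (edgeR adjusted p = 2.22e-06), while the receptor genes TGFBR1 and TGFBR2 fell by 0.78 and fell by 0.66 (edgeR adjusted p = 2.35e-05 and 4.46e-08). SMAD3, the transducer of that receptor, fell to 70.8 ± 3.31 CPM in EV, against 233 ± 3.75 CPM in WFI (log2 fold change -1.72, edgeR adjusted p = 1.93e-10). The Notch ligand gene JAG1 rose to 325 ± 2.59 CPM in EV, against 57.5 ± 2.90 CPM in WFI (edgeR adjusted p = 6.67e-12), and the receptor gene NOTCH2 fell by 1.29 (edgeR adjusted p = 3.73e-10). EGR1, an immediate early factor that can bind the SNAI1 promoter, rose by 1.64 (edgeR adjusted p = 7.98e-10). NFKB1 rose by 1.09 and the chromatin factor gene HMGA2 fell by 0.91 (edgeR adjusted p = 3.33e-09 and 1.21e-07). Genes of known inputs to SNAI1 thus differed in sign.

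Of 17 tested corepressor genes, 5 were called higher, 9 lower and 3 neither, beside 34.5% higher and 31.5% lower over all genes. The list median was -0.18 on the log2 scale. LOXL2, a lysyl oxidase that binds Snail, fell to 110 ± 3.54 CPM in EV, against 399 ± 1.95 CPM in WFI (edgeR adjusted p = 1.92e-11). SIN3A, a scaffold for histone deacetylases, fell by 1.14 (edgeR adjusted p = 4.69e-08). EED and EZH2, subunits of Polycomb repressive complex PRC2, rose by 1.41 and 0.83 (edgeR adjusted p = 1.37e-08 and 1.72e-06). CTBP1, the partner of ZEB proteins, stood at 140 ± 4.39 CPM in EV and 139 ± 1.53 CPM in WFI (edgeR adjusted p = 0.909). EHMT2 had 1 and 1 counts in EV and 1 and 0 in WFI and lay below the filter.

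TWIST proteins pair with E proteins, which ID proteins bind and hold from DNA. Of 6 such genes tested, 3 were called higher, 1 lower and 2 neither, beside 34.5% higher and 31.5% lower over all genes. The list median was 0.17 on the log2 scale. Of the ID genes, ID2 rose by a log2 fold change of 10.57 (edgeR adjusted p = 8.23e-15) and ID3 by 1.56 (2.95e-07 by the same test), while ID1 stood at 72.7 ± 6.59 CPM in EV and 72.8 ± 0.695 CPM in WFI. ID4 had 2 and 0 counts in EV and 0 in WFI. The E protein gene TCF3 rose by 0.35 (edgeR adjusted p = 3.24e-05). TCF12 fell by 0.23 (edgeR adjusted p = 0.0136), a call lost with DESeq2 (adjusted p = 0.0649) and without WFI replicate 1 (edgeR adjusted p = 0.0992).

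Other factors linked to EMT were split. Of 15 tested, 6 were called higher, 6 lower and 3 neither, beside 34.5% higher and 31.5% lower over all genes. The list median was 0.01 on the log2 scale, against 0.02 over all genes. The split is therefore not read as particular to these factors. FOXC1, a forkhead factor gene, rose to 218 ± 10.4 CPM in EV, against 22.2 ± 0.785 CPM in WFI, and the T-box gene TBX3 rose to 614 ± 18.3 CPM in EV, against 98.9 ± 4.03 CPM in WFI (edgeR adjusted p = 6.39e-12 and 1.82e-12). FOXM1 rose by 0.95 (edgeR adjusted p = 6.3e-09). ZNF281, a zinc finger factor gene, fell to 20.2 ± 0.841 CPM in EV, against 110 ± 5.25 CPM in WFI (edgeR adjusted p = 2.91e-10). TBXT had 0 and 7 counts in EV and 0 in WFI. Among 12 other Snail and Twist relatives, 2 passed the filter: SCX fell by 1.44 (edgeR adjusted p = 0.00289) and TCF23 had 28 and 23 counts in EV and 0 and 2 in WFI, a ratio of 28.2 (95% interval 7.43 to 239). TCF23 passed through EV alone, so it could only be higher. TCF21 had 0 counts in EV and 0 and 3 in WFI, while HAND1 and PTF1A had 0 in WFI and up to 3 and 13 counts in EV.

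Epithelial genes did not move as a block. Of 36 genes listed as targets of these repressors or as epithelial identity factors, 26 were tested: 11 were called higher, 7 lower and 8 neither. Over all genes tested, 34.5% were higher and 31.5% lower, so a mixed outcome is not particular to this list. Its median was 0.41 on the log2 scale. Of the tested genes 3 had fewer than 10 counts over both WFI samples and passed through EV, so they could only be higher. The same held for TJP3, with 27 and 26 counts in EV and 6 and 5 in WFI. With a filter of 50 counts in 2 samples, 7 were higher and 7 lower. The keratin genes KRT8, KRT18 and KRT7 rose, to 1896 ± 10.5, 725 ± 12.1 and 750.5 ± 3.68 CPM in EV, against 733 ± 8.56, 387 ± 3.63 and 436 ± 7.90 CPM in WFI (edgeR adjusted p = 6.13e-12, 7.1e-10 and 2.07e-09). The tight junction gene CLDN1 fell to 282 ± 15.6 CPM in EV, against 474 ± 10.7 CPM in WFI, and the plakoglobin gene JUP fell by 1.02 (edgeR adjusted p = 4.52e-08 and 7.7e-08). PATJ, a polarity gene, fell by 1.39 (edgeR adjusted p = 3.97e-06). Several low genes were higher: GRHL1 rose by 2.57 (edgeR adjusted p = 1.17e-05), and RAB25 had 24 and 16 counts in EV and 0 in WFI, at least 7.43-fold higher against a floor of 3 counts per library. OVOL1, which encodes an epithelial repressor of ZEB1, had 16 and 40 counts in EV and 2 and 1 in WFI, a ratio of 20.7 (95% interval 6.72 to 103). CDH1, the best known Snail target, lay below the filter, as did GRHL2 with 23 and 4 counts in EV and 0 in WFI, and CLDN3 with 0 counts in EV and 0 and 3 in WFI. With CDH1 at 0 and 1 counts in WFI, no fall of it could have been measured.

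Mesenchymal genes moved both ways. Of 32 listed, 26 were tested: 7 were called higher, 11 lower and 8 neither, beside 34.5% higher and 31.5% lower over all genes. A mixed outcome is thus not particular to this list either. The list median was -0.29 on the log2 scale. Of the tested genes 2, COL5A1 and FAP, had fewer than 10 counts over both WFI samples and passed through EV, so they could only be higher; with a filter of 50 counts in 2 samples 5 were higher and 11 lower. FN1, the fibronectin gene, fell to 5298 ± 44.0 CPM in EV, against 10014 ± 107 CPM in WFI (edgeR adjusted p = 1.23e-11). The integrin genes ITGB3 and ITGA5 fell by 2.38 and fell by 1.44, and the matricellular gene SPARC fell by 1.24 (edgeR adjusted p = 3.13e-11, 3.17e-10 and 6.65e-10). CDH2, which encodes N-cadherin, stood at 151 ± 2.36 CPM in EV and 154 ± 1.08 CPM in WFI (edgeR adjusted p = 0.483). MMP9, a matrix metalloproteinase gene, rose by 1.67 (edgeR adjusted p = 0.000328). COL5A1 had 46 and 59 counts in EV and 0 in WFI, at least 19.3-fold higher. THY1 had 23 and 7 counts in EV and 0 in WFI, POSTN had 0 in EV and 0 and 3 in WFI, and CDH11 had 0 in all samples.

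**Figure D5:**
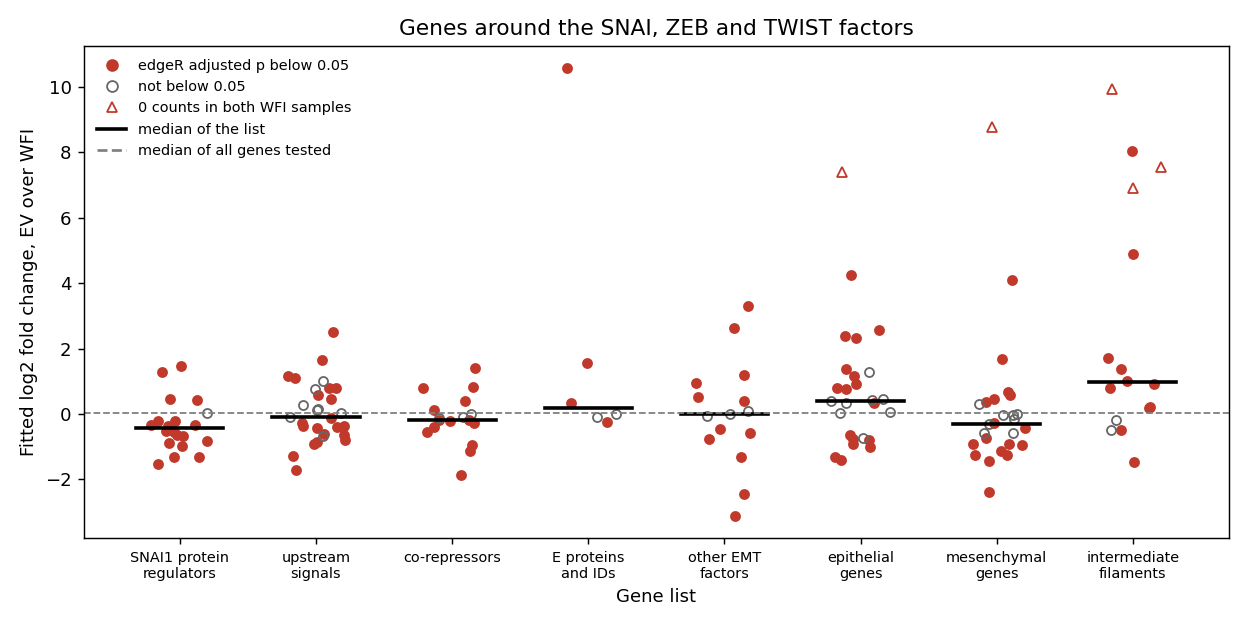
Fitted log2 fold change of EV over WFI (y axis) for each tested gene of 8 lists (x axis); filled points passed the test, open circles did not, triangles are genes with 0 counts in both WFI samples, black bars are list medians and the dashed line is the median of all genes tested. Medians run from -0.44 for the regulators of SNAI1 protein to 0.97 for the intermediate filament list. In that last list 5 of 16 genes had fewer than 10 counts over both WFI samples and passed the count filter through EV, and GFAP likewise passed through EV.

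Among 16 other intermediate filament and linker genes tested, 12 rose, 2 fell and 2 were not called, beside 34.5% higher and 31.5% lower over all genes. The list median was 0.97 on the log2 scale. However, 5 of the 16 had fewer than 10 counts over both WFI samples and passed through EV, so they could only be higher. The same held for GFAP, with 18 and 27 counts in EV and 6 and 9 in WFI. With a filter of 50 counts in 2 samples, 8 were higher and 2 lower. The keratins given above are 3 of the 12 that rose. PRPH, which encodes peripherin, a relative of vimentin, had 342 and 430 counts in EV and 0 and 3 in WFI, a ratio of 285 (95% interval 97.1 to 1384). KRT5 had 97 and 134 counts in EV and 0 in WFI, at least 42.5-fold higher, and KRT6A and NEFM were at least 8.24-fold and 5.17-fold higher. PLEC, the linker of vimentin to other filaments, fell to 566 ± 29.6 CPM in EV, against 1563 ± 49.4 CPM in WFI (edgeR adjusted p = 8.76e-11). NEFL had 12 and 4 counts in EV and KRT14 had 6 and 15, with 0 in WFI for both.

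Of 12 microRNA loci and host transcripts linked to ZEB or SNAI transcripts, 10 lay below the count filter. MIR200CHG, the host of miR-200c and miR-141, had 4 and 9 counts in EV and 0 in WFI, and MIR205HG had 3 and 3 counts in EV and 0 in WFI. The loci MIR200A, MIR200B and MIR429 had 0 counts in EV and at most 4 in any WFI sample, and MIR34BHG had 0 in EV and 2 and 1 in WFI. NFYC, a protein coding host of miR-30 members, was abundant, with 1186 and 1230 counts in EV and 926 and 1065 in WFI, and rose by 0.43 (edgeR adjusted p = 0.000573), and MIR34AHG did not pass. Mature microRNAs were not measured by this library type, so the level of the sequences shown above is unknown.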

How the data were processed

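RNA-seq counts of 4 samples were used, 2 treated with EV and 2 with WFI. The deposited table gives whole-number counts per Ensembl gene, raw and not normalized, judged from the values; the genome build was hg38, per the submitters' processing notes. How reads were aligned and counted, with which annotation and strand setting, was not given in the sources used here. Per the labels' protocols, total RNA and a directional library kit were used. Of the 61860 identifiers, 61757 were found in the name table. Coordinates and lengths came from GENCODE 29. The principal transcript was the APPRIS principal one, or else the longest.

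Counts were tested with edgeR 4.0.16 in R 4.3.3 (TMM, filterByExpr, quasi-likelihood test, group as the only term), with Benjamini-Hochberg adjustment over 17465 genes and calls below 0.05. SE is the log2 fold change divided by the square root of F. The procedure was tested on simulated data. Levels are mean ± SD of CPM. Intervals and floors of 3 counts cover counting error only, since reads are not independent molecules. Replicates differed beyond counting noise (chi-square over its degrees of freedom 4.58 in EV and 2.20 in WFI) and were counted separately. Named list genes were up to 4 called genes per list in order of adjusted p, genes with 0 counts in 1 group, and CDH1. Others were chosen after their values were seen, and a few genes that the rule names are not reported here. Likeness was the Euclidean distance between log2 CPM (prior count 2) centred on the 4 samples. Other settings were a replicate block, leaving out each sample, upper quartile or RLE scaling, DESeq2 1.42.0, and count filters of none or of 50 or more counts in 2 samples. The members and lists were chosen with earlier results of these data known.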

Additional observations from a re-analysis of the deposited data

How the results depend on the processing

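All 6 fitted genes kept their sign in every setting run. For SNAI1 the log2 fold change ran from 9.71 to 10.20, both with 1 WFI sample left out, and for SNAI3, ZEB1 and ZEB2 from -1.85 to -1.32, -0.63 to -0.47 and -1.004 to -0.81. SNAI3 gave no value with the filter of 50 counts. The fold changes of SNAI2 and VIM moved beyond the small replicate spread, to 0.83 and 0.24 with upper quartile scaling, 0.69 and 0.11 with no count filter and 0.82 and 0.23 with the filter of 50 counts. Leaving out a sample gave 0.71 to 0.76 for SNAI2 and 0.15 to 0.19 for VIM. Without WFI replicate 1 or with DESeq2, 0 E protein and ID genes were lower, against 1 (range 0 to 1 with a sample left out). Higher epithelial genes numbered 7 with the filter of 50 counts. Higher microRNA hosts and higher Snail and Twist relatives numbered 2 each with no count filter, and relatives 0 with the filter of 50 counts. With a sample left out, lower microRNA hosts ran from 0 to 1, and lower antisense and neighbouring genes from 2 to 5, with 5 and 1 without EV replicate 1. Replicate differences were nearly uncorrelated between groups (correlation 0.0159). This shows no shared shift by replicate number but cannot tell whether samples of the same number were paired. With a replicate block the log2 fold change of SNAI1 was 9.97, and no list's count of calls differed from that without the block by over 1.5 times; over all genes 5957 were higher and 5573 lower, against 6019 and 5509. The causes of these shifts were not tested. Depth limits SNAI3, TWIST1, TWIST2, CDH1 and most microRNA hosts, whose counts lie near the floor.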
